A study of Mus musculus with 170 samples.

Results

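The genes described here are Ubd, which encodes the ubiquitin-like protein FAT10, and 7 genes of the immunoproteasome and of the peptide supply that it feeds. These are the inducible catalytic subunits Psmb8, Psmb9 and Psmb10, the subunits Psme1 and Psme2 of the proteasome activator PA28, and the subunits Tap1 and Tap2 of the peptide transporter TAP. They were chosen by symbol and make up 8 of the 21450 symbols in the count table, with 14 of its 30146 probe rows. The counts of all probes of a symbol were summed in each library. Levels are given as counts-per-million (CPM), a gene's share of all counts in a library.

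Transcripts were measured in female mice of the outbred CD-1 strain, in the lung and in some animals also in the heart, after condensates of biomass smoke had been placed in the airways by oropharyngeal aspiration. Each smoke animal received 50 µL of saline carrying particulate matter (PM) at 2 mg/mL. Eucalyptus, peat, pine, pine needles and red oak were the 5 fuels, and each was burned either smoldering or flaming. For each of the 10 smokes and for saline alone there were 6 animals whose lungs were collected 4 h later and 6 others at 24 h. A further 4 animals at each time received bacterial lipopolysaccharide (LPS), which activates innate immune cells and served as the positive control. Hearts were taken at 24 h from 6 animals each of saline, red oak smoldering, red oak flaming, peat smoldering and peat flaming, and these 30 animals also gave lungs. All groups share the strain and the sex. The LPS dose and the animals' age were not used here.

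The proteasome is a barrel of protease subunits that cuts tagged proteins into peptides. In most cells its cutting sites are formed by the constitutive subunits encoded by Psmb5, Psmb6 and Psmb7. Interferon-gamma, a cytokine of T and NK cells, induces the replacements encoded by Psmb8, Psmb9 and Psmb10, and the particle that holds them is the immunoproteasome. PA28 is a ring of the Psme1 and Psme2 products that docks on the barrel and widens its gate. TAP, a pair of the Tap1 and Tap2 products, pumps the peptides into the endoplasmic reticulum, where they are loaded on MHC class I molecules for display to T cells. FAT10 is induced by interferon-gamma together with tumor necrosis factor. It is attached to proteins by the enzymes encoded by Uba6 and Ube2z, and it sends them to the proteasome, where the Nub1 product helps to receive it.

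Promoter sequence is shown first, since the members moved together after LPS: that of Ubd, the member with the largest change, and the interval that Psmb9 and Tap1 share. RefSeq windows on the mouse build GRCm38.p6, 250 bases before to 50 after a start site, were at hand for 7 of the 8 members, all except Tap2. The first line is the 250 bases before the start of Ubd (chr17:37193642-37193891, plus strand), where capitals mark the single match to the consensus of NF-kB, a factor activated by LPS and by tumor necrosis factor. The second is the stretch between the starts of Psmb9 and Tap1 (chr17:34187331-34187555, plus strand), which lie back to back 226 bases apart and are transcribed away from each other, and it holds none of the motifs searched.
Ubd: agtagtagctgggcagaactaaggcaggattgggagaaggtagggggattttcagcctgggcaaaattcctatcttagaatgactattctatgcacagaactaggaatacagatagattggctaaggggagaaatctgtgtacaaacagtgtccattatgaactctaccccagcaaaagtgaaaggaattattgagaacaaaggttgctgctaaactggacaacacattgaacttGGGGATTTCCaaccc
Psmb9-Tap1 interval: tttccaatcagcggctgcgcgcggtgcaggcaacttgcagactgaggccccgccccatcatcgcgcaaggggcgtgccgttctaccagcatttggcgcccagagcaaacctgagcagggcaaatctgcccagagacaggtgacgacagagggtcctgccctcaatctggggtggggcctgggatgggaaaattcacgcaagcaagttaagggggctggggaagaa
The Ubd match lies 15 to 6 bases before the start site. Of all 32851 windows in the table, 8.459% hold this consensus on either strand, so a match is common. Of the other 2 motifs, GAAANNGAA, a core of interferon-response elements, is held by 8.56% of windows, and TTCNNNGAA, a palindrome, by 8.298%. Among the members the palindrome was found in Psmb8, 97 to 89 bases before its start, and the interferon-response core in Psme1, on the opposite strand 11 to 19 bases after its start. A match is a description of these letters only. In the gene order of the same build, Psmb9, Tap1, Psmb8 and Tap2 are neighbours on chromosome 17 within the MHC, between H2-DMb1 and H2-Ob. Ubd lies elsewhere on chromosome 17, between Olfr93 and Olfr94. Psme1 and Psme2 lie on chromosome 14 with Emc9 between them, and Psmb10 lies on chromosome 8 between Ctrl and Lcat.

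The 170 libraries held 4.43 to 8.05 M counts, with a median of 6.59 M. Psmb8, Psme1 and Ubd were each read by a single probe. For Psmb9, Psme2 and Tap1 one probe carried 99.9%, 99.2% and 93.7% of the counts, whereas the probes of Psmb10 carried 52.2% and 47.8%. Tap2 had 3 probes, with 78.9%, 17.6% and 3.42%. Probe sequences were not used here, so it cannot be told which transcripts a probe also matches, such as the retrocopy Psme2b. The labelled tissues carried their markers: the summed lung epithelium genes held 30672 to 52708 CPM in saline lungs at 24 h and 13.04 to 19.3 CPM in saline hearts, and the heart muscle genes held 273 to 776 and 41077 to 46336 CPM. In 6 lungs at 24 h, all from smoke animals, between 9886 and 12545 genes were detected, whereas every other library had at least 13000. Most members shifted in these 6 lungs, as given below. Nearly all lungs of 4 h were processed on plate 1 and most lungs of 24 h on plate 2, and all hearts on plate 2, so the plate was a term in the lung fit.

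After LPS the lung showed by far the strongest change of these genes. At 4 h, 7 of the 8 rose, and at 24 h all 8 rose. Here a gene was called where the Benjamini-Hochberg adjusted p of edgeR's quasi-likelihood test was under 0.05, and every such p below comes from that test over all genes. Of all 14458 genes tested, 8.98% were called at 4 h, 5.48% as higher, and 12.1% at 24 h, 7.58% as higher. The median log2 fold change of the members was 2.10 at 4 h and 2.94 at 24 h, beside medians over all genes of -0.04 and -0.12. The comparisons at a given time share their saline animals. In whole tissue, more cells of a type and more RNA in each cell cannot be told apart, and this holds for every level below.

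Ubd went from near the limit of detection in saline lungs to at least 325 CPM in LPS lungs of 24 h. At 4 h the LPS lungs held 12.6, 9.37, 8.77 and 5.51 CPM, and the saline lungs 0 to 1.06 CPM with a median of 0.496. No LPS lung overlapped a saline lung. The log2 fold change was 4.27 ± 0.94 (SE; adjusted p = 0.000487 by edgeR). At 24 h the LPS lungs held 325, 772, 334 and 464 CPM, and the saline lungs 0 to 1.28 CPM with a median of 0.488. The lowest of these LPS lungs exceeded the highest of all lungs without LPS by 6.87-fold. The log2 fold change was 10.21 ± 1.06 (adjusted p = 4.6e-14 by edgeR), and 10.10 ± 1.15 in a fit of plate 2 alone.

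Psmb9, whose product replaces that of Psmb6, was above every saline lung in all 4 LPS lungs at both times. At 4 h it was at 131.03, 121.7, 139.2 and 107.9 CPM, against a saline range of 26.3 to 62.95 with a median of 34.2 (log2 fold change 1.76 ± 0.34, adjusted p = 4.0e-05 by edgeR). At 24 h it was at 285, 347, 343 and 310 CPM, against 19.7 to 66.2 with a median of 47.7 (3.17 ± 0.34). Psmb10, whose product replaces that of Psmb7, did the same. Its 4 h levels were 46.8, 54.2, 62.5 and 48.9 CPM, against 8.02 to 19.7 in saline with a median of 11.5 (2.11 ± 0.31, adjusted p = 5.3e-08 by edgeR). Its 24 h levels were 68.6, 98.5, 89.9 and 53.6 CPM, against 10.5 to 18.9 with a median of 15.95 (2.56 ± 0.31). At 24 h only 1 of its probes was called, number 76244, with a log2 fold change of 2.68 (adjusted p = 3.3e-10 by edgeR), and probe 32110 gave 0.77 (adjusted p = 0.559).

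Psmb8, whose product replaces that of Psmb5, was low everywhere, and its probe gave few counts. At 4 h it was at 2.12, 9.08, 8.13 and 4.62 CPM after LPS, against 0.321 to 2.50 in saline with a median of 1.34. One LPS lung lay within the saline range. The log2 fold change was 2.27 ± 0.77 (adjusted p = 0.0436 by edgeR), and the call did not hold without any one of saline replicates 1, 2, 3, 4 and 6 or LPS replicates 2, 3 and 4 (adjusted p up to 0.151 by edgeR), or with libraries scaled by total counts (0.0626). At 24 h the groups did not overlap: LPS lungs held 8.34, 9.35, 7.52 and 7.03 CPM, and saline lungs 0 to 2.24 with a median of 0.973 (3.25 ± 0.78, adjusted p = 0.00134 by edgeR).

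Both PA28 genes rose after LPS at both times. Psme1 was at 102.5, 70.5, 81.5 and 53.5 CPM at 4 h, against 30.3 to 50.0 in saline with a median of 38.2 (log2 fold change 1.06 ± 0.27, adjusted p = 0.00375 by edgeR). Its levels at 24 h were 118.2, 98.7, 90.1 and 66.2 CPM, against 20.8 to 40.5 with a median of 26.4 (1.95 ± 0.27). Psme2 was at 195, 165, 306 and 198 CPM at 4 h, against 24.8 to 82.9 with a median of 57.3 (2.09 ± 0.38, adjusted p = 1.43e-05 by edgeR). Its 24 h levels were 158, 141, 99.1 and 127.2 CPM, against 9.76 to 63.1 with a median of 34.4 (2.14 ± 0.38, adjusted p = 5.5e-06 by edgeR). All LPS lungs were above all saline lungs in each case. Psme2 was the only member with a lower mean level in LPS lungs at 24 h (131.3 ± 24.8 CPM, SD, n = 4) than at 4 h (216 ± 61.8, n = 4), and its saline mean was also lower at 24 h (36.8 against 55.2).

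Of the transporter genes, Tap1 rose at both times, and the calls of Tap2 depended on which lungs entered the fit. Tap1 was at 132.98, 217, 143 and 101.5 CPM at 4 h after LPS, against 17.9 to 34.6 in saline with a median of 28.2 (2.56 ± 0.42, adjusted p = 1.74e-06 by edgeR). At 24 h the level was 280, 315, 310 and 288 CPM, against 9.76 to 25.9 with a median of 18.5 (4.27 ± 0.45). Tap2 was at 881, 611, 338 and 182 CPM at 4 h, and 2 of these 4 lay above all saline lungs, which spanned 84.9 to 392 with a median of 119.1 (1.65 ± 0.76, adjusted p = 0.194 by edgeR). It was called at 4 h in a fit of the 4 h lungs alone (1.66, adjusted p = 0.00649 by edgeR), of plate 1 alone or without the 6 lungs of few genes. At 24 h it was at 1329, 2246, 1823 and 1360 CPM, all above the saline range of 86.9 to 787 with a median of 224 (2.71 ± 0.78, adjusted p = 0.0097 by edgeR). This last call did not hold in a fit of plate 2 alone (2.54 ± 1.15, adjusted p = 0.284) or of the 24 h lungs alone (adjusted p = 0.073).

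**Figure D1:**
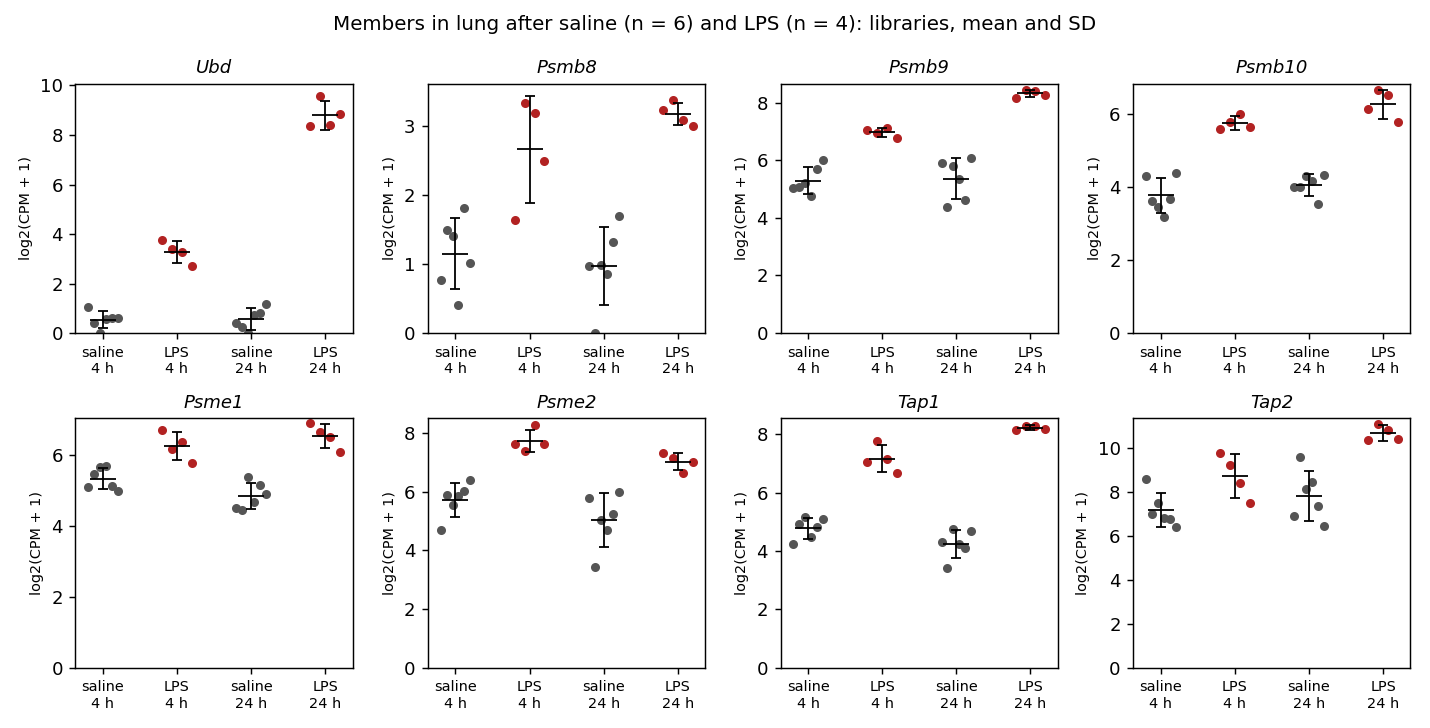
Level of each member as log2(CPM + 1) in every saline and LPS lung at 4 h and 24 h, 1 point per library, with the mean and SD of each group (n = 6 saline, grey, and 4 LPS, red). Ubd shows the widest gap, 325 to 772 CPM after LPS at 24 h against at most 1.28 in saline, while Tap2 overlaps saline at 4 h.

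The LPS change at 24 h was then compared with that at 4 h in 1 test. Of all genes, 0.581% were called, 0.436% as higher at 24 h. Of the members only Ubd was called, with a difference in log2 fold change of 5.93 ± 1.46 (adjusted p = 0.022 by edgeR). The mean level of Ubd in LPS lungs was 9.05 ± 2.89 CPM at 4 h and 474 ± 209 at 24 h (SD, n = 4 each), with no overlap, and its saline means were 0.487 ± 0.346 and 0.531 ± 0.464 (n = 6 each). The call was lost without saline replicate 1 of 4 h (5.52, adjusted p = 0.0964 by edgeR), LPS replicate 4 of 4 h or LPS replicate 2 of 24 h. Beside 1209 of all 14458 genes, 4 members had an unadjusted p under 0.05, which added Tap1 (1.70), Psmb9 (1.41) and Psme1 (0.89). In saline animals none of the 8 differed between the times by edgeR or by DESeq2, none had an unadjusted p under 0.05, and 0% of all genes were called.

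The rest of the pathway was read from fixed lists, and no listed gene fell after LPS. The counts of genes that rose, here and in the lists below, stand beside 5.48% of all genes called as higher at 4 h and 7.58% at 24 h. Of the constitutive catalytic subunits, 0 of 3 were called at 4 h and 1 of 3 at 24 h. Psmb6 rose to 543 ± 97.1 CPM at 24 h from 377 ± 71.7 (0.75 ± 0.23, adjusted p = 0.0179 by edgeR). Psmb5 was at 87.1 ± 24.6 against 78.8 ± 66.4 CPM (0.36 ± 0.69) and Psmb7 at 2.26 ± 0.931 against 2.88 ± 2.57 CPM (-0.02 ± 0.72). The wide SE of both leave room for a change in either direction. So the gene of each replaced subunit had a smaller log2 fold change than that of its replacement at 24 h, a difference that was not tested. Of the 11 other subunits of the barrel, 1 rose at 4 h (Psma7) and 2 at 24 h (Psma7 and Psmb3). Of the 5 assembly factors, 0 rose at 4 h and 2 at 24 h, Psmg4 (1.60) and Pomp (1.24), the latter a chaperone that matures the barrel. Of the 18 subunits of the 19S cap, which admits ubiquitin-tagged proteins, 3 rose at 4 h (Psmd4, Psmc6 and Psmd12) and 3 at 24 h (Psmd13, Psmd7 and Psmd12). Neither the other activators Psme3 (0.38 at 4 h, 0.32 at 24 h) and Psme4 (-0.03, -0.30) nor the inhibitor Psmf1 passed the test at either time.

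The partners of the members differed among themselves. Of the 4 genes of FAT10 conjugation, Nub1 rose at 24 h, to 360 ± 29.6 CPM from 245 ± 43.6 (0.81 ± 0.16, adjusted p = 5.3e-05 by edgeR), and none rose at 4 h. The conjugating enzymes Uba6 (-0.63 ± 0.75 at 24 h) and Ube2z (0.43 ± 0.48) did not pass. The genes of ISG15, another ubiquitin-like protein induced by interferon, stood beside them with 4 of 5 called at 4 h and 5 of 5 at 24 h, among them Isg15 (5.33 and 5.12) and its remover Usp18 (3.54 and 3.50). Of 10 genes of MHC class I loading, 4 rose at 4 h and 7 at 24 h. The class I heavy chain H2-K1 went from 710 ± 202 to 3291 ± 696 CPM at 24 h (2.46 ± 0.26, and 1.496 at 4 h). The class I activator Nlrc5 gave 2.95 and 4.15. The light chain B2m gave 1.36 at 4 h (adjusted p = 0.182 by edgeR) and 2.31 at 24 h (adjusted p = 0.00554). Tapbp, which encodes the tapasin that bridges TAP and class I, gave 1.02 and 1.91 without passing (adjusted p = 0.0648 at 24 h by edgeR).

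The cytokines known to induce these genes rose too. Of the 7 cytokine and receptor genes tested, 3 were called at 4 h and 5 at 24 h. Ifng, which encodes interferon-gamma, was at 3.10 ± 1.67 CPM at 4 h after LPS against 0.335 ± 0.517 in saline (3.26 ± 0.92, adjusted p = 0.0101 by edgeR), and at 30.3 ± 20.1 against 0.427 ± 0.395 at 24 h (6.47 ± 0.96). Tnf, which encodes tumor necrosis factor, had log2 fold changes of 4.34 and 6.01. Of the 11 transcription factors of the interferon and NF-kB pathways, 10 rose at each time, without Irf8 at 4 h and without Rela at 24 h. Irf1, an interferon-induced activator of these genes, gave log2 fold changes of 2.35 and 3.45.

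Markers of other cell types moved in the same lungs. All 6 neutrophil genes rose at both times, and their summed level was 522 to 1849 CPM after LPS against 108.3 to 314 in saline at 4 h, and 1056 to 1510 against 65.7 to 185 at 24 h. The saline sum of 24 h was mostly Ly6g (mean 96.1 CPM), which was also at 66.3 CPM in saline hearts. Of 10 T and NK cell genes, 0 were called at 4 h, when the sums overlapped (112.6 to 190 against 98.9 to 219 CPM), and 3 rose at 24 h (457 to 797 against 101.8 to 208). Nkg7 was the largest part of that sum in saline lungs of 24 h, with a mean of 83.9 CPM beside 24.4 for Cd3d, the next. The 2 monocyte genes tested of 4 listed both rose at 24 h, and 1 of them at 4 h, with sums at 24 h of 167 to 440 against 23.3 to 95.8 CPM. Of 6 lung epithelium genes 1 fell at 24 h, with sums of 11295 to 25859 against 30672 to 52708 CPM. In saline lungs of 24 h the sum was mostly Scgb1a1, with a mean of 30171 CPM beside 5541 for Sftpc, the next. It therefore says little of the other genes. B cell genes had sums of 70.004 to 117.7 against 102.05 to 381 CPM at 4 h, where 2 of 6 fell, and of 57.7 to 107.3 against 73.8 to 304 at 24 h, where none was called. Heart muscle genes, which lung veins also express, fell at 24 h in 4 of 8, with sums of 106.5 to 133.8 against 273 to 776 CPM. Dendritic cell sums overlapped at both times (84.1 to 113.2 against 48.5 to 116.8 CPM at 24 h), and of 6 genes Cd209a fell at 24 h. Of 6 alveolar macrophage genes Marco rose at 24 h, with overlapping sums, and no endothelial gene was called. Thymocyte genes stayed at 7.15 CPM or less. The part of these shifts in cell makeup in the rise of the members was not tested.

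None of the 10 smokes gave a response of this kind, and 1 gave a single call for Ubd. At 4 h, 0 of 80 pairs of member and smoke were called by edgeR or by DESeq2, and 6 had an unadjusted p under 0.05. Over all genes and the 10 smokes, 0.0456% of pairs were called. Genes with an unadjusted p under 0.05 ran from 259 of 14458 (peat smoldering) to 1742 (pine needles flaming). At 24 h 1 of 80 pairs was called by edgeR and 2 by DESeq2, beside 0.187% of all pairs by edgeR. Both tools called Ubd after pine needles smoldering, and DESeq2 also called Tap2 after red oak flaming. Of the 80 pairs, 11 had an unadjusted p under 0.05. Over all genes this held for 239 of 14458 (peat smoldering) to 2977 (pine needles flaming).

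Over all lungs without LPS, Ubd had a median of 0.673 CPM. It was at 0 in 19 of them and above 5 CPM in only 5. Group means at 4 h were 0.435 ± 0.452 for red oak smoldering, 0.439 ± 0.558 for peat smoldering, 0.441 ± 0.383 for eucalyptus smoldering, 0.583 ± 0.309 for peat flaming and 0.886 ± 0.571 for red oak flaming (CPM, SD, n = 6 each). They were 1.19 ± 0.892 for pine needles flaming, 1.33 ± 0.683 for eucalyptus flaming, 1.49 ± 1.07 for pine flaming, 2.91 ± 3.16 for pine smoldering and 4.54 ± 9.25 for pine needles smoldering. Every one of these groups had lungs within the saline range, and neighbours in this order overlapped. At 24 h the means were 0.0827 ± 0.0906 for pine needles flaming, 0.362 ± 0.388 for eucalyptus smoldering, 0.568 ± 0.4005 for pine flaming, 0.651 ± 0.847 for pine smoldering and 0.874 ± 0.435 for red oak flaming. They were 1.12 ± 1.12 for peat smoldering, 1.19 ± 1.15 for red oak smoldering, 1.36 ± 2.51 for eucalyptus flaming, 1.96 ± 1.38 for peat flaming and 9.10 ± 18.8 for pine needles smoldering. The last of these means was no lower than that of LPS at 4 h, but it came from 1 animal.

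**Figure D2:**
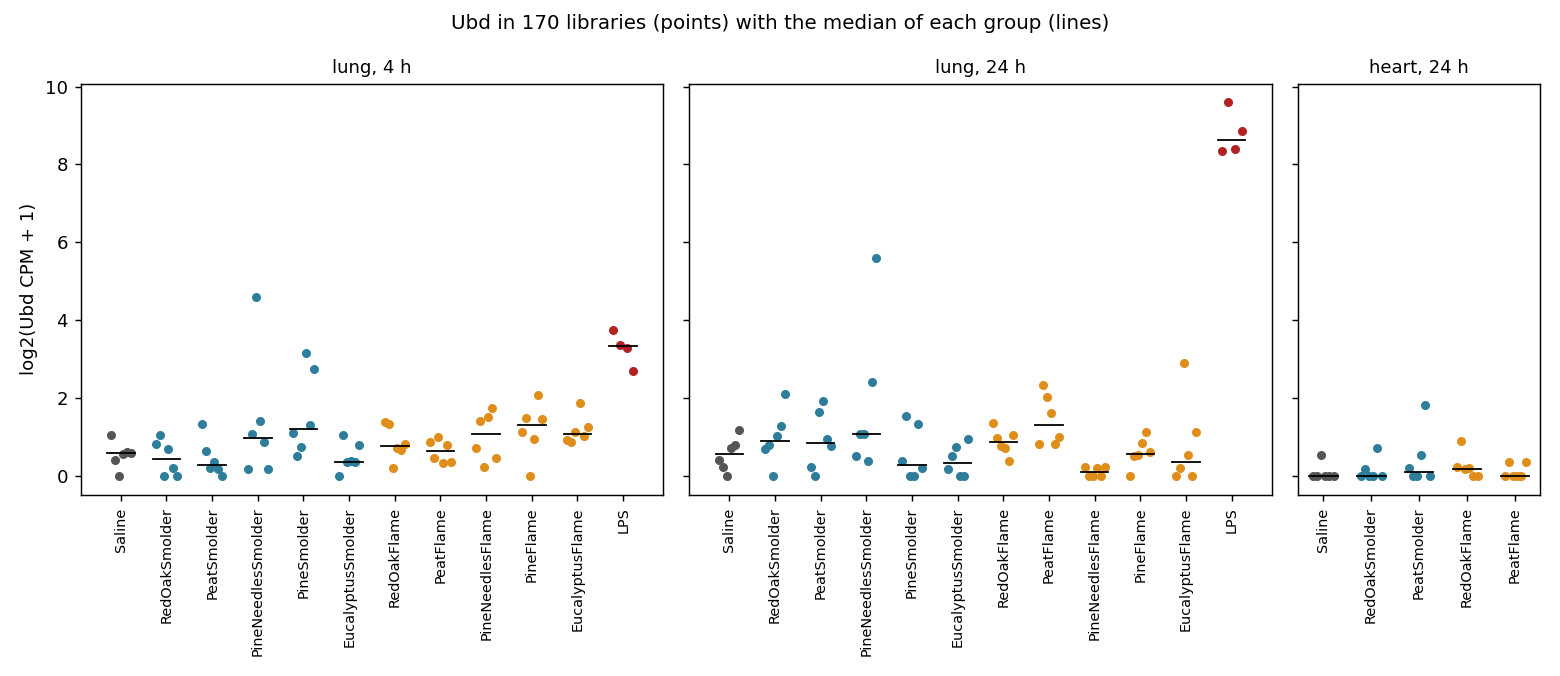
Level of Ubd as log2(CPM + 1) in every library of the 24 lung and 5 heart groups, 1 point per library, with a line at the group median (grey saline, blue smoldering, orange flaming, red LPS). The 4 LPS lungs of 24 h sit at 325 to 772 CPM, apart from all others, and the highest lung without LPS is a pine needles smoldering lung of 24 h at 47.4 CPM.

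In the pine needles smoldering lungs of 24 h, Ubd was at 0.439, 1.09, 1.11, 0.301, 4.29 and 47.4 CPM, and 2 of the 6 lay above all saline lungs. The log2 fold change was 5.36 ± 1.02 (adjusted p = 0.00427 by edgeR), and among all genes 0.0138% were called as higher in that comparison. Without replicate 6, the lung at 47.4 CPM, it was 2.61 ± 0.99 (adjusted p = 1). It was also not called without saline replicate 1 (5.44, adjusted p = 0.0549 by edgeR), without the plate term (4.08, adjusted p = 0.104) or in a fit of the 24 h lungs alone (5.16, adjusted p = 0.113). All 6 lungs of this group were on plate 1, as was only 1 saline lung of 24 h, replicate 1.

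For the other 7 members, no smoke was called against saline at either time by edgeR, and the spread of the fold changes differed between members. DESeq2 called Tap2 after red oak flaming at 24 h, a change whose direction depended on the lungs of few genes, as given below. At 4 h the 10 log2 fold changes ranged from -1.16 to 0.37 for Psmb8, from 0.12 to 0.80 for Psmb9 and from -0.02 to 0.68 for Psmb10. They ranged from -0.01 to 0.68 for Psme1, from -0.04 to 0.65 for Psme2, from -0.36 to 0.57 for Tap1 and from -0.86 to 1.12 for Tap2. All 10 lay above 0 for Psmb9, 9 for Psmb10 and for Psme2, and 8 for Psme1, none of them called. At 24 h they ranged from -0.32 to 1.73 for Psmb8, from -0.12 to 0.61 for Psmb9 and from -0.44 to 0.61 for Psmb10. They ranged from 0.23 to 0.64 for Psme1, from 0.01 to 0.95 for Psme2, from -0.13 to 1.40 for Tap1 and from -1.77 to 1.79 for Tap2. The smallest adjusted p among these pairs was 0.171 by edgeR, for Tap2 at 24 h after pine needles flaming (-1.77). Among the 10 smokes, the pine needles smoldering group held the highest 24 h log2 fold change of Psmb8, Psmb9, Psmb10 and Tap1 as well as of Ubd. That group lay wholly on plate 1, and its replicate 6 held Psmb9 at 158 CPM, with 69.2 the next in the group.

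**Figure D3:**
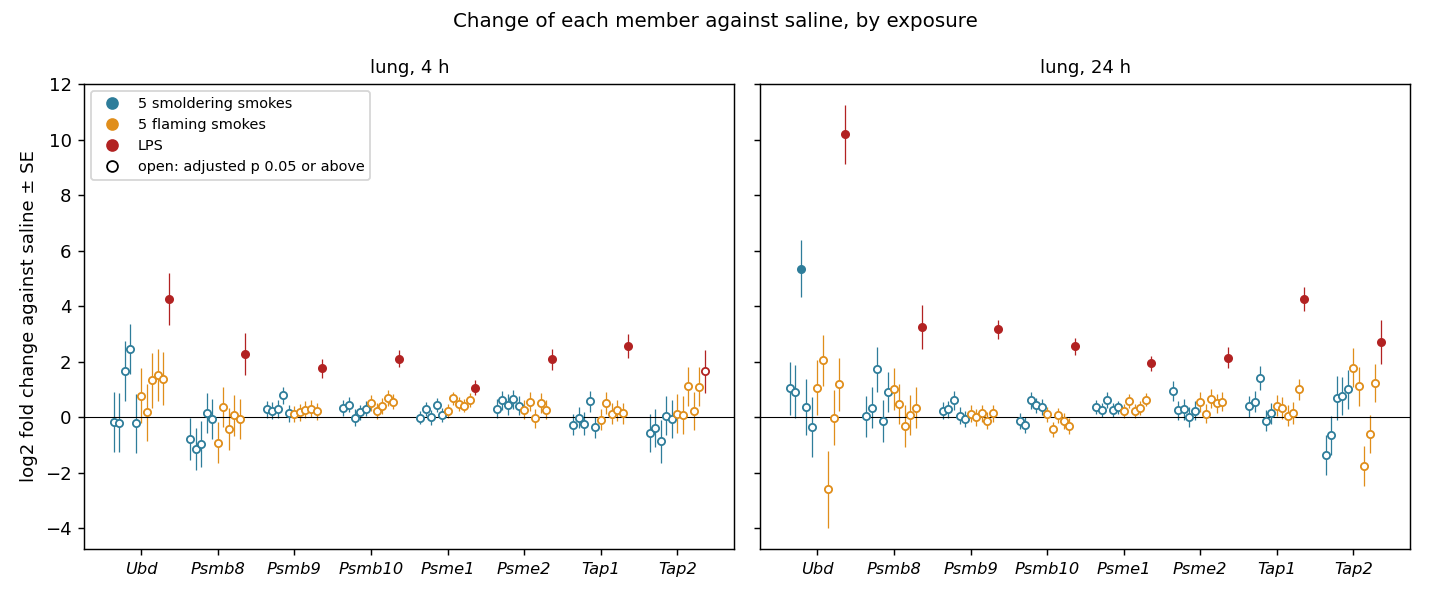
Log2 fold change against saline ± SE of each member in lung at 4 h and 24 h, for the 5 smoldering smokes (blue), the 5 flaming smokes (orange) and LPS (red), filled where the adjusted p was under 0.05. All LPS points lie above 1, and the only filled smoke point is Ubd after pine needles smoldering at 24 h (5.36).

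The mean of the 10 smokes was then set against saline. No member was called by edgeR or by DESeq2 at either time. At 4 h no member and 0% of all genes were called, with no member at an unadjusted p under 0.05. At 24 h 0.00692% of all genes were called and 514 of 14458 had an unadjusted p under 0.05, among them 1 member, Psme1. Its mean was 38.4 ± 13.1 CPM over 60 smoke lungs and 28.3 ± 7.77 over 6 saline lungs (log2 fold change 0.38, 95% interval 0.01 to 0.76, adjusted p = 1 by edgeR). The intervals of the other members leave room for changes of differing size. For Ubd they were -0.68 to 2.43 around 0.87 at 4 h and -0.68 to 2.48 around 0.90 at 24 h.

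Flaming and smoldering smokes were also compared with each other. At 4 h 2.39% of all genes were called, and 2770 of 14458 had an unadjusted p under 0.05. None of the 8 members was called by edgeR or DESeq2, and 2 of them had an unadjusted p under 0.05. These were Psme1, at 56.96 ± 13.7 CPM in 30 flaming lungs and 46.3 ± 12.8 in 30 smoldering lungs (0.33 ± 0.11, adjusted p = 0.0910 by edgeR), and Tap2, at 255 ± 164 and 158 ± 57.2 CPM (0.89 ± 0.32, adjusted p = 0.105). The flaming lungs include eucalyptus flaming replicate 3, with Tap2 at 843 CPM and 260 the next in its group. Both genes were called in a fit without the 6 lungs of few genes (Psme1 0.34, adjusted p = 0.0255, and Tap2 0.81, adjusted p = 0.0246, by edgeR). Those 6 are lungs of 24 h and so are not among the lungs compared here. The share of all genes called in that fit is not given here. At 24 h none was called by either tool beside 0.111% of all genes. Psmb10 (-0.34 ± 0.13) and Ubd (-1.13 ± 0.47) had an unadjusted p under 0.05, both lower in flaming lungs, beside 907 of 14458 genes. Among the smokes of 24 h, both had their highest mean after pine needles smoldering, a group wholly on plate 1. Its Ubd mean came mostly from 1 lung at 47.4 CPM.

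A test of any difference among the 10 smokes called 0 members at 4 h by edgeR and by DESeq2, beside 0.609% of all genes. Ubd alone of the members had an unadjusted p under 0.05, beside 943 of 14458 genes. At 24 h the test called 4 of the 8, beside 18.0% of all genes: Ubd (adjusted p = 1.3e-05 by edgeR), Tap2 (0.00049), Psmb10 (0.031) and Tap1 (0.046). Without replicate 6 of pine needles smoldering, Ubd (adjusted p = 0.0123) and Tap2 remained called, and Psmb10 and Tap1 did not. The same 2 remained without replicate 2 of that group. No member was called in a fit of 1 plate. Pine needles flaming was the lowest group at 24 h for Ubd, with 0.0827 ± 0.0906 CPM (3 lungs at 0), and for Tap2, with 106.8 ± 29.7. The highest were pine needles smoldering for Ubd (9.10 ± 18.8), Psmb10 (22.4 ± 8.85) and Tap1 (46.99 ± 24.4), and peat flaming for Tap2 (528 ± 358). Of the pathway genes above, 1 was called in any smoke at either time: Canx, an endoplasmic reticulum chaperone, was lower after red oak flaming at 24 h (593 ± 278 against 923 ± 245 CPM, -0.74 ± 0.21, adjusted p = 0.0453 by edgeR). In that comparison 253 of all 14458 genes were called, 28 as lower, and replicate 6 of red oak flaming had only 9886 genes detected.

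The spread of Tap2 among smoke lungs followed 1 of its probes and the number of genes detected. Over all lungs without LPS, the level of probe 68940 had a Pearson correlation of -0.79 (Spearman -0.56) with the number of genes detected, where both share the library. In the 6 lungs with under 13000 genes detected this probe was at 461 to 1878 CPM, and in all other lungs without LPS at 30.7 to 832 with a median of 114.6. The other Tap2 probes did not follow it (r = -0.04 for 68695 and -0.08 for 79305). The main probe of Psme2 went the opposite way, with r = 0.88 (Spearman 0.65) and only 0 to 10.7 CPM in the 6 lungs. The main probes of Psmb9 (r = 0.72, Spearman 0.58) and Tap1 (0.70, Spearman 0.38), probe 32110 of Psmb10 (0.70, Spearman 0.61) and the probe of Psme1 (0.56, Spearman 0.14) went with it. By rank, Tap1 and above all Psme1 followed the number of genes detected only weakly. In the 6 lungs Psmb9 was at 2.69 to 20.5 CPM by its main probe, against a median of 48.1 in the others, and Tap1 at 0 to 14.9 against 23.7. Ubd did not follow the number of genes detected (r = -0.00072). For Tap2 after red oak flaming at 24 h the log2 fold change was 1.79 with all lungs, 2.54 without saline replicate 2 (adjusted p = 0.0476 by edgeR), -0.98 without the 6 lungs and -0.54 with the number of genes detected as a term. For LPS the probes also differed. At 4 h the log2 fold changes were 2.08 ± 0.38 for 68695 (adjusted p = 2.4e-05 by edgeR) and 2.01 ± 0.39 for 79305 (5.9e-05), whereas 68940 gave 1.499 ± 0.85 (0.374). At 24 h they were 3.16, 3.26 and 2.61, all called.

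**Figure D4:**
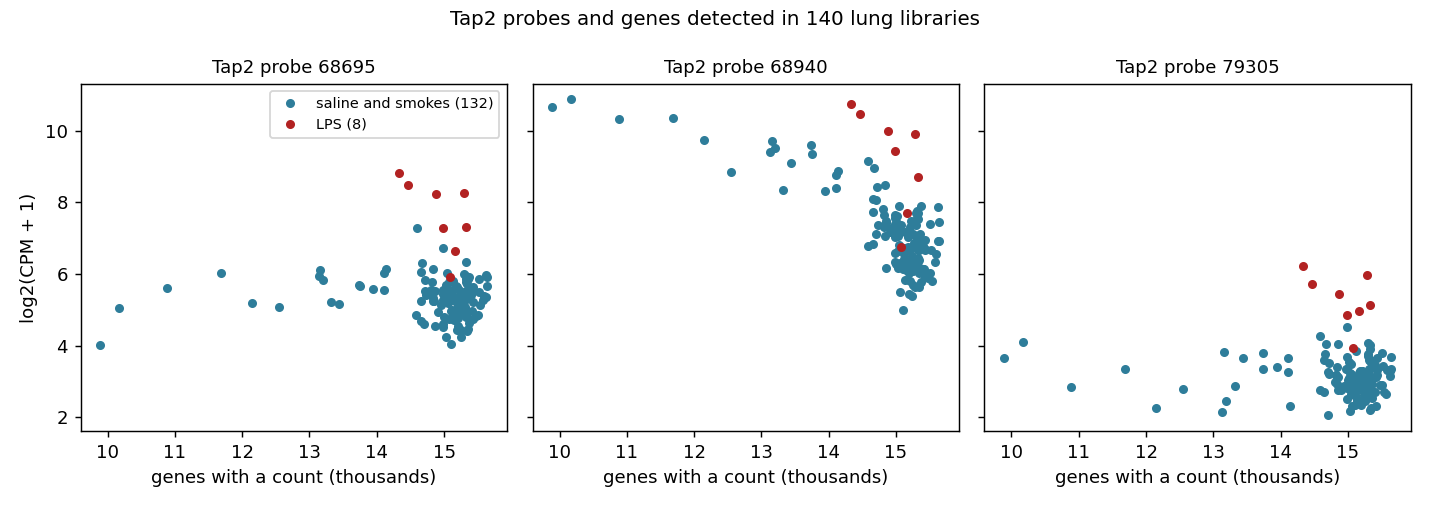
Level as log2(CPM + 1) of the 3 Tap2 probes against the number of genes with a count, 1 point per lung, with LPS lungs (red) apart from all others (blue). Probe 68940 is at 461 to 1878 CPM in the 6 lungs under 13000 genes, while probes 68695 and 79305 show no such climb.

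Single animals, picked after their values were seen, stood apart from their groups in several members at once. A pine smoldering lung of 4 h (replicate 4) held Ubd at 7.96 CPM, Psmb8 at 4.93, Psmb9 at 197, Tap1 at 140 and Psme2 at 139.2. Of these, Ubd, Psmb8 and Tap1 lay within the range of the LPS lungs of 4 h, Psmb9 lay above that range and Psme2 below it. Its Ifng was at 3.18 CPM, neutrophil genes at 448 and T and NK cell genes at 417 CPM in sum. The pine needles smoldering lung of 24 h with Ubd at 47.4 CPM (replicate 6) held Psmb9 at 158, Tap1 at 88.5 and Tap2 at 745 CPM, but Psme2 at 29.1. Its Ifng was at 1.32 CPM and its T and NK cell genes at 377. A eucalyptus flaming lung of 24 h (replicate 3) held Psmb9 at 153, Tap1 at 135.8 and Ubd at 6.41 CPM, with T and NK cell genes at 295. By contrast, a pine needles smoldering lung of 4 h (replicate 3) held Ubd at 23.4 CPM with Psmb9 at 49.7, Tap1 at 25.6, Ifng at 0 and T and NK cell genes at 184. T and NK cell sums in saline lungs reached 219 CPM at 4 h and 208 at 24 h. Sums as high were also found with Ubd and Psmb9 within or below the saline range: pine needles smoldering replicate 2 of 24 h had 316 CPM with Ubd at 1.09 and Psmb9 at 45.9, and eucalyptus flaming replicate 5 of 24 h, a lung of few genes, had 335 with Ubd at 0 and Psmb9 at 10.8. The part of these cells in the single lungs was not tested.

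In the heart the set looked different, and after exposure of the lung none of its genes that could be tested was called by the main test. Ubd and Psmb8 were too low to be tested in hearts, with means of 0.0773 to 0.518 CPM and of 0.0730 to 0.322 CPM over the 5 groups. For the other 6 members, 0 of 24 pairs of member and exposure were called by edgeR and 1 by DESeq2. Over all pairs of gene and exposure edgeR called 4.09%, from 0 of 11179 genes after red oak smoldering to 1344 after red oak flaming. Of the 24 pairs, 4 had an unadjusted p under 0.05. Over all genes this held for 700 of 11179 after red oak smoldering and 3071 after red oak flaming. The call by DESeq2 was Psmb10 after red oak flaming, at 99.7 ± 21.4 CPM against 124.4 ± 24.5 in saline (SD, n = 6 each; log2 fold change -0.50 ± 0.18, adjusted p = 0.0702 by edgeR). Without saline replicate 5 edgeR called it as well (-0.59, adjusted p = 0.0318). In the mean of the 4 exposures 0 of 6 were called by either tool beside 2.33% of all genes. Psmb10 alone of the 6 had an unadjusted p under 0.05 (-0.29, 95% interval -0.57 to -0.01), beside 2278 of 11179 genes. Between flaming and smoldering smoke 0 of 6 were called by either tool beside 0.0358% of all genes. Again Psmb10 alone of the 6 had an unadjusted p under 0.05 (-0.35 ± 0.13), beside 1904 of 11179 genes. Psmb9 in hearts ranged over group means of 10.7 ± 3.44 CPM in saline to 16.4 ± 13.8 after peat smoldering, and Tap1 from 0.736 ± 0.399 to 1.74 ± 0.851 in the same groups. In 1 peat smoldering animal (replicate 5) Psmb9 and Tap1 were the highest of the group in both tissues, with Psmb9 at 44.3 CPM in the heart and 100 in the lung and Tap1 at 3.07 and 64.7. Its Ubd was the highest in the heart, at 2.51 CPM, but lay within the saline range in the lung, at 0.931.

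Between the tissues of the 6 saline animals, 6 of the 8 members differed by edgeR and 7 by DESeq2, beside 74.4% of all genes (42.3% lower and 32.2% higher in heart), so a call here is the usual case. Each value is read against a median over all genes of -0.33. Both transporter genes were far lower in heart: Tap2 was at 8.52 to 15.6 CPM in hearts and 86.9 to 787 in lungs (-4.09 ± 0.72), and Tap1 at 0.154 to 1.40 and 9.76 to 25.9 (-3.90 ± 0.46). Neither overlapped. Psmb9 was lower, at 6.65 to 14.9 against 19.7 to 66.2 CPM (-1.19 ± 0.37, adjusted p = 0.0035 by edgeR). Psmb8 was lower, at 0 to 0.528 against 0 to 2.24 (-2.25 ± 0.96, adjusted p = 0.0321), a call that did not hold without any one of animals 1, 3 and 5 (adjusted p up to 0.1004). Psmb10 was higher in heart, at 89.8 to 155 CPM against 10.5 to 18.9 (3.71 ± 0.27), and Psme2 was higher, at 44.5 to 79.4 against 9.76 to 63.1 (1.65 ± 0.31, but 0.81 with an adjusted p of 0.0538 by edgeR when libraries were scaled by total counts). Psme1 (0.28 ± 0.25, adjusted p = 0.318) and Ubd (-1.98 ± 1.22, adjusted p = 0.138) did not pass by edgeR, and Psme1 turned to -0.49 with that scaling. Ubd was called without animal 3, the single heart with Ubd counts (-4.98, adjusted p = 0.0133 by edgeR). With the animal as a replicate block the same 6 were called.

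The Psmb10 difference was mostly that of 1 probe. Probe 32110 averaged 105.2 CPM in saline hearts and 1.65 in saline lungs (6.69 ± 0.53), and probe 76244 averaged 19.1 and 14.2 (1.10 ± 0.28, adjusted p = 0.00056 by edgeR). Probe 76244 was also the one that rose with LPS in lung. Among the constitutive subunits Psmb7 was higher in heart (42.1 ± 5.72 against 2.88 ± 2.57 CPM, 4.84 ± 0.59), Psmb6 lower (-0.60 ± 0.21) and Psmb5 not called (-0.34 ± 0.60). Of the 11 other barrel subunits 9 were higher in heart and none lower, and of 18 subunits of the 19S cap 13 were higher and 2 lower. Of 9 genes of MHC class I loading 5 were lower and 1 higher, among them Tapbp at 2.73 ± 0.868 against 196 ± 181 CPM (-5.61 ± 0.73). Summed T and NK cell genes were at 4.63 to 7.57 CPM in these hearts and 101.8 to 208 in the lungs, and the part of such cells in these differences was not tested.

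**Figure D5:**
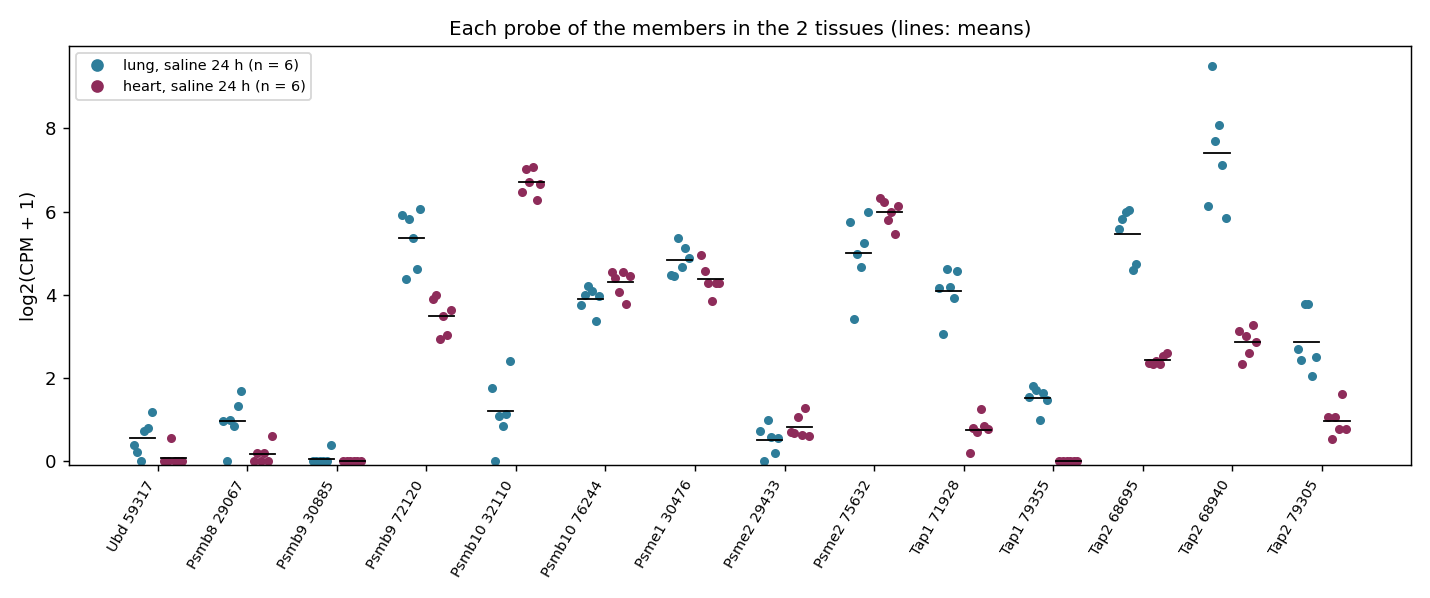
Level as log2(CPM + 1) of each probe of the members in the saline lungs (blue) and saline hearts (purple) of 24 h, 1 point per library, with lines at the means (n = 6 each). The Psmb10 probes part ways, with probe 32110 averaging 105.2 CPM in hearts and 1.65 in lungs, and probe 76244 averaging 19.1 and 14.2.

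The genes whose lung pattern was most like that of Ubd were found among 11192 genes by Pearson correlation of log2(CPM + 1) over the 24 lung group means. They were Ido1 (0.98), Cxcl9 (0.97), Apol6, Batf2, Gbp10, Irgm1, Il12rb1 and Ifng (0.95). For the mean of the other 7 members they were Zbp1 (0.98), Tnf, Iigp1, Cd274, Aoah, Sp140, Parp12 and Serpina3g (0.96). The 2 LPS groups carry these values: over the 22 other groups the highest correlation was 0.75 with Ubd, for Nrp1, and 0.87 with the others, for Ogt. Between members, Ubd had r = 0.93 with Psmb9 and 0.90 with Tap1 over the 24 group means. Within groups, over the lungs without LPS, Psmb9 and Tap1, the pair that shares the interval printed above, had r = 0.78. The main probes of both also followed the number of genes detected (r = 0.72 and 0.70, Spearman 0.58 and 0.38), and the part of this in their correlation was not tested. In the same lungs Psmb9 and Psme2 had 0.70, Ubd and Tap1 only 0.28, and Psme2 and Tap2 -0.84, the pair whose main probes moved in opposite directions with the number of genes detected.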

How the data were processed

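Lung and heart RNA was measured by a targeted assay. Per the labels' protocols it was run on the TempO-Seq platform, which reads probes, and the same text also names a QuantSeq kit. Per the submitters' processing notes Bowtie and DESeq2 were used (versions not given there), with the build not given in the sources used here. Deposited values are raw counts per probe and library, per the file headers and from the values. Library totals were 4.43 to 8.05 M, and precision beyond that depth comes from the number of animals.

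Probes were summed per symbol. Genes were tested with edgeR 4.0.16 (R 4.3.3; TMM scaling, filterByExpr, robust quasi-likelihood) in 1 fit of 140 lungs with group and plate (14458 genes), 1 of 30 hearts (11179) and 1 of both tissues of 30 animals (13746). Adjusted p-values are Benjamini-Hochberg over all genes tested, with a threshold of 0.05. SE is the log2 fold change divided by the root of F. Levels are CPM of total counts. The scripts were tested on simulated data. Alternatives were other scalings, DESeq2 1.42.0, no filter, no plate term, single probes, single times or plates, and leaving out libraries. All 8 members are named. From the other lists, the genes with the smallest p at 4 h after LPS were taken, up to 4 a list, beside a fixed set of partners, and other called genes of a list are named by its count. The members, lists and rules were chosen with earlier results of these data known.

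Same-numbered heart and lung libraries come from the same animal, as the titles show. Over the 30 animals, the deviations of the paired libraries correlated at -0.196 to 0.257 (median 0.0923).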

Additional observations from a re-analysis of the deposited data

Results flagged for a closer look

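A library was looked at again where it lay apart from the other 3 to 5 of its group by Dixon's criterion, which chance meets in about 1 of 20 groups. It was met in 26 of 232 groups of a member, 11.2%, in 20 libraries. Hearts gave several in the genes near the limit of detection. Ubd in hearts was highest at 0.464 CPM in saline replicate 3, 0.864 in red oak flaming replicate 2, 0.636 in red oak smoldering replicate 5 and 2.51 in peat smoldering replicate 5. Psmb8 in hearts was highest at 0.528 CPM in saline replicate 6 and 0.773 in peat flaming replicate 4. Psmb9 reached 44.3 CPM in the same peat smoldering heart of replicate 5, with 12.4 the next in its group, and Psme1 was lowest at 13.7 CPM in peat flaming replicate 5.

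In lungs of 4 h, Ubd was highest at 23.4 CPM in pine needles smoldering replicate 3. Pine smoldering replicate 4 was highest in Psmb9 (197 CPM, next 69.1) and in Tap1 (140 CPM, next 30.5). Psmb9 was highest at 68.4 CPM in red oak smoldering replicate 2, and Tap2 at 843 CPM in eucalyptus flaming replicate 3. The lowest in their groups were Psmb8 at 0.444 CPM in eucalyptus flaming replicate 1, Psme1 at 34.9 in pine smoldering replicate 1 and Psme2 at 34.4 in red oak smoldering replicate 5.

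In lungs of 24 h, Psmb9 was highest at 158 CPM in pine needles smoldering replicate 6, and Psme1 at 58.96 CPM in pine flaming replicate 3. The other lungs of that time marked in this way had under 13000 genes detected. Red oak flaming replicate 6, with 9886 genes detected, was lowest in Psmb9 (2.69 CPM), Psme1 (1.80) and Tap1 (2.51). Pine smoldering replicate 4, with 10886, was lowest in Psmb9 (18.5 CPM) and Tap1 (0.430). Psme2 was lowest at 10.7 CPM in pine flaming replicate 6, where Tap2 was highest at 500.0 CPM, and at 1.58 CPM in eucalyptus flaming replicate 5.

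The LPS change of Ubd differed between 24 h and 4 h by 5.93 on the log2 scale, in the test of that difference given above.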

How the results depend on the processing

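Counts of called members of the LPS comparisons ran from 6 to 7 at 4 h and stayed at 8 at 24 h when each replicate was left out. For the LPS change between the times the count was 0 to 1, and it was 2, with Psmb9, when the number of genes detected was a term or 4 libraries that stand apart were left out (chosen after seeing the data). For the smokes at 24 h, where 1 pair was called, the count was 2 with DESeq2 size factors, with DESeq2 or without the 6 lungs of few genes. It was 0 without the plate term, with 1 time or 1 plate alone, or without the 4 libraries, and 0 to 2 on leaving out replicates, with 2 without saline replicate 2. At 4 h it was 2 in place of 0 with the number of genes detected as a term. Flaming against smoldering at 4 h gave 2 in place of 0 without the lungs of few genes or with that term, and 1 with 1 time alone. Among the 10 smokes at 4 h the count was 1 in place of 0 without the plate term, with 1 time or with 1 plate. At 24 h it was 2 in place of 4 with DESeq2 size factors or total counts, 1 with the number of genes detected or with 1 time, 0 with 1 plate, and 2 to 4 on leaving out replicates. In hearts it was 1 in place of 0 with DESeq2, and 0 to 1 on leaving out replicates, with 1 without saline replicate 5. Heart against lung gave 5 to 6, and 6 with the animal as a replicate block, which changed no call. The direction turned for Tap2 after red oak flaming at 24 h, -0.98 without the lungs of few genes and -0.54 with that term, and for Psme1 between heart and lung, -0.49 with total counts. The cause was not tested. Scaling by total counts moved the median of all genes from -0.12 to -0.37 for LPS at 24 h and from -0.33 to -1.08 for heart against lung. All other counts of called members under these settings stayed within 1.5 times. The shares of all genes called under these settings are not given here, so no move of a count can be read against them. Depth limits Ubd and Psmb8 most, since both were at 0 in some libraries of every tissue.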
